A study of Homo sapiens with 12 samples.

Results

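The 10 genes described here write, maintain and remove DNA methylation. They were followed in MDA-MB-231, a cell line from human breast cancer, during stimulation with PMA and Ionomycin. They were taken by symbol from the table of gene expression, and each of the 10 genes had exactly 1 of its 24331 features, which named no other gene. The genes are DNMT1 and UHRF1 (maintenance of methylation), DNMT3A and DNMT3B (new methylation), TET1, TET2 and TET3 (oxidation of methylcytosine), TDG (excision of the oxidised base) and GADD45A and GADD45B (stress proteins linked to demethylation and to cell cycle arrest). The rule that selects them is the symbol alone. PMA, a phorbol ester, activates protein kinase C, and Ionomycin, a calcium ionophore, raises intracellular calcium.

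The WT cells carried no introduced deletion. The other cells, ΔCRE, were MDA-MB-231 cells that had lost, through CRISPR/Cas9, the stretch with NFAT and NF-κB sites of the core-regulatory element (CRE) in the promoter of ETS1, a transcription factor gene (KO in the sample labels). The deletion was made through screened clones, and the number of clones behind the libraries is not given in the sources used here, so the deletion and a difference between clones cannot be told apart. Both genotypes were measured without stimulation (0 h) and after 6 and 24 h in PMA/Ionomycin. Each condition had 2 biological replicates, which makes 12 RNA-sequencing libraries. Expression is given as FPKM, fragments scaled to transcript length and to all mapped fragments, so that levels of different genes can be set side by side.

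In the usual view, DNMT3A and DNMT3B place methyl groups on unmethylated CpG sites. UHRF1 recognises hemimethylated CpG sites behind the replication fork and recruits DNMT1, which copies the mark to the new strand. TET dioxygenases oxidise methylcytosine, and TDG cuts out the most oxidised forms, which base excision repair replaces with cytosine, while the mark is also diluted when a cell divides without maintenance.

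One library stood apart from the others. The sum of FPKM over all features lay between 566255 and 651080 in 11 libraries and was 1423335 in the library labelled ΔCRE 0 h replicate 1. Replicates correlated at an r of 0.978 to 0.984 across features in the other 5 conditions and at 0.867 at ΔCRE 0 h, and features are not independent replicates. All 5 mesenchymal markers (VIM, CD44, AXL, CAV1, SPARC) had a mean above 1 FPKM, and their sum was 1820 to 3127 FPKM in the 11 libraries and 1485 FPKM in the library that stood apart. VIM made up most of that sum (1200 FPKM in that library), and SPARC, also a gene of fibroblasts, was at 44.8 FPKM there against at most 12.6 FPKM in the 11 libraries. The sum of 7 intestinal epithelium markers was 0.0396 to 0.371 FPKM in the 11 libraries and 4294 FPKM in that library, and the sum of 7 luminal breast markers was 37.3 to 112.9 FPKM and 3086 FPKM. KRT19 (1848 FPKM) and EPCAM (1139 FPKM), keratin and adhesion genes of epithelia in general, carried the luminal sum in that library. Of the other genes of the luminal list, ESR1 was listed at 0 there, PGR was at 0.0128 FPKM, and GATA3 at 2.38 FPKM lay within the range of the 11 libraries. CDH1 was at 52.3 FPKM and ERBB3 at 44.5 FPKM there. In the 11 libraries ESR1 and CDH1 were near 0, PGR was listed at 0, and ERBB3 was at most at 1.39 FPKM. Fibroblast markers summed to 1.48 to 3.23 FPKM against 52.3 FPKM in that library, and leukocyte markers to at most 0.0856 FPKM against 2.26 FPKM. By the plan of the comparisons, ΔCRE 0 h replicate 1 was kept out of the means and of the tests on the other 11 libraries. ΔCRE cells at 0 h, with 1 library left, entered no test. ETS1, next to the deletion, was at 139.2 and 145.2 FPKM in WT and 62.8 and 62.2 FPKM in ΔCRE cells at 6 h (limma adjusted p = 2.04e-05). The difference was smaller at 24 h, with 36.2 and 39.7 FPKM in WT and 29.3 and 30.7 FPKM in ΔCRE cells (limma adjusted p = 0.0153).

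Differences are log2 fold changes of FPKM + 1 with their standard error (SE) from limma, and a gene was called when its p-value, adjusted by the Benjamini-Hochberg method over 11256 features with a mean of at least 1 FPKM, was under 0.05. The spread comes from all conditions with 2 libraries, and ΔCRE 0 h, with 1 library left, adds nothing to it. This filter was passed by 9 of the 10 genes, and TET1, with a mean of 0.190 FPKM, did not.

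Before stimulation the levels of the 10 genes in WT cells spanned DNMT1 at 87.9 ± 2.21 FPKM (SD, n = 2) to TET1 at 0.261 ± 0.0518 FPKM. UHRF1 followed DNMT1 at 76.4 ± 0.985 FPKM, then came GADD45B at 33.8 ± 3.99 FPKM and TDG at 22.0 ± 2.70 FPKM. DNMT3A at 7.76 ± 0.258 FPKM and GADD45A at 7.72 ± 1.20 FPKM were next and overlapped between libraries. TET3 at 3.32 ± 0.0813 FPKM, TET2 at 3.07 ± 0.193 FPKM and DNMT3B at 2.95 ± 0.274 FPKM closed the order, and the TET2 and DNMT3B libraries overlapped. DNMT1 made up 84.3% to 89.3% of the summed FPKM of the 3 DNA methyltransferases in each of the 11 libraries, so the maintenance enzyme carried most of their transcripts in every condition.

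**Figure D1:**
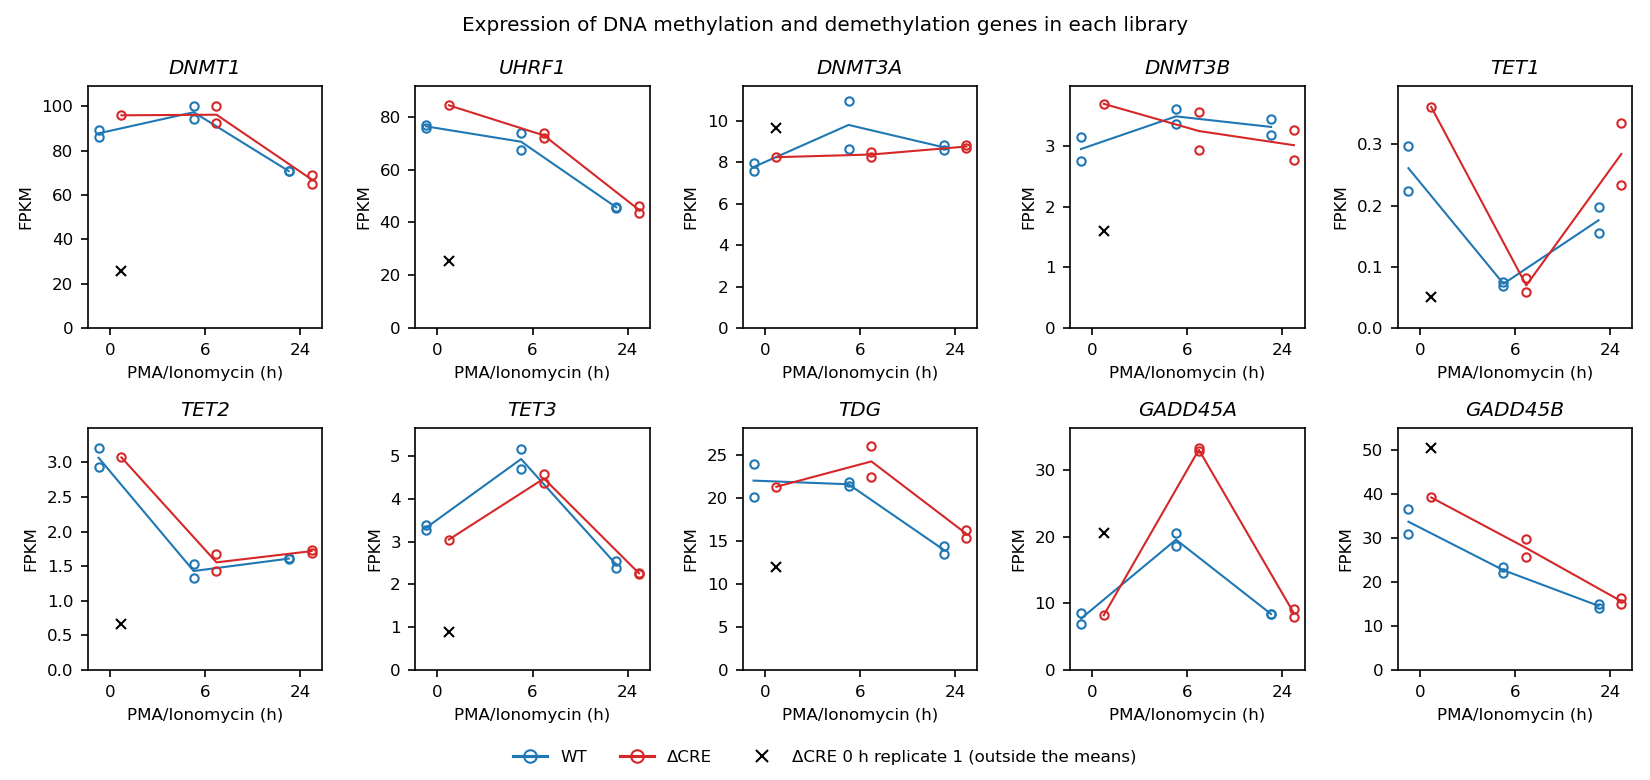
FPKM of the 10 genes (vertical axes, each from 0) at 0, 6 and 24 h of PMA/Ionomycin (horizontal axes, time points evenly spaced). Circles are single libraries of WT (blue) and ΔCRE (red) cells, lines join the means, and the cross is ΔCRE 0 h replicate 1, which enters no mean. DNMT1, UHRF1, TDG and GADD45B are lowest at 24 h in both genotypes, and GADD45A peaks at 6 h, at 19.6 FPKM in WT and 33.0 FPKM in ΔCRE cells.

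In WT cells, 5 of the 9 tested genes were called at 6 h against 0 h, where 44.4% of all 11256 features were called. GADD45A, TET3 and DNMT3A rose and TET2 and GADD45B fell. Against the 23.3% of features called higher and 21.1% called lower, these are 3 and 2 genes. The median log2 fold change was 0.15 over the 9 genes and −0.0014 over all features. At 24 h against 0 h, 6 of the 9 genes were called where 54.6% of features were, and all 6 fell: GADD45B, UHRF1, TET2, TDG, TET3 and DNMT1. Features called lower made up 28.2% of those tested, and the median was −0.32 over the 9 genes and −0.020 over all features. Between 6 and 24 h, 6 genes were again called, all lower (DNMT1, UHRF1, TET3, TDG, GADD45A and GADD45B), where 46.8% of features were called (20.5% higher and 26.3% lower).

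**Figure D2:**
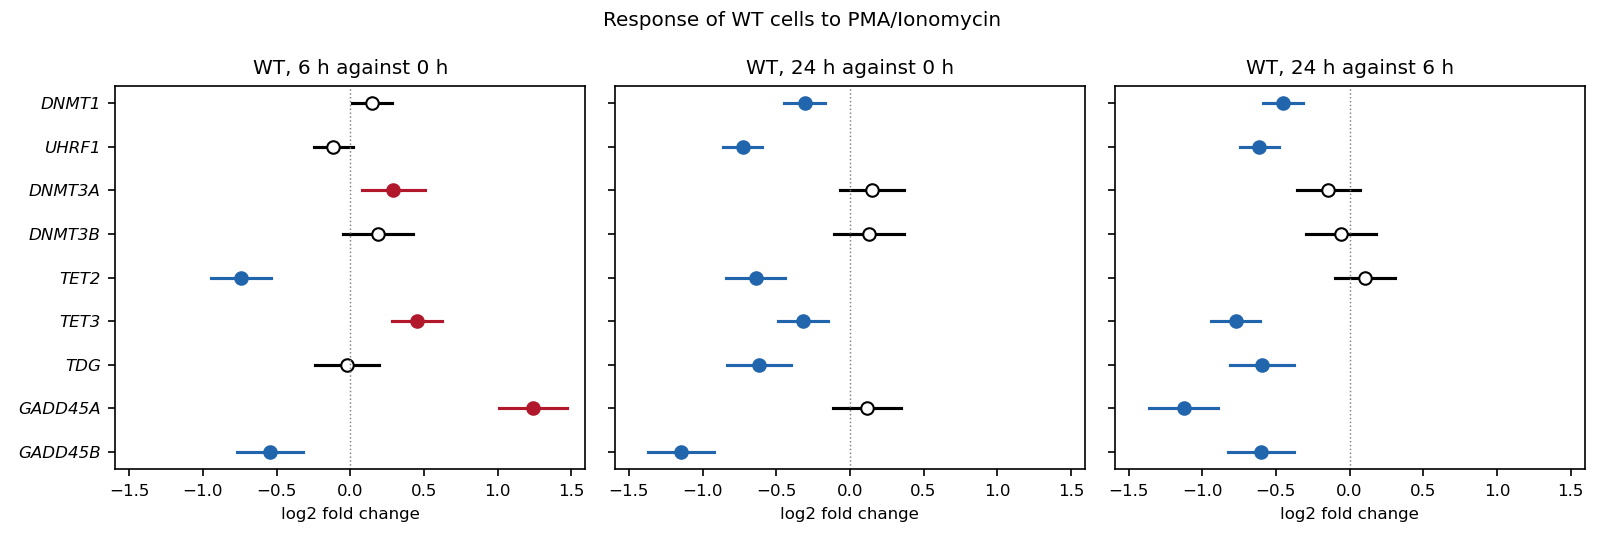
Log2 fold change of FPKM + 1 (horizontal axes) of 9 genes between time points in WT cells. Points are limma estimates, bars 95% confidence intervals, and filled points have an adjusted p under 0.05 (red higher, blue lower). At 24 h against 0 h the 6 called genes all lie below 0, from −0.31 for DNMT1 to −1.15 for GADD45B.

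The summed FPKM of a library moved with time. It was between 623644 and 651080 in the 4 libraries at 6 h and at most 609038 in the other 7 of the 11 libraries. Rescaling each library to the same sum (TPM) moved the median log2 fold change of all features at 6 h against 0 h in WT cells from −0.0014 to −0.12 and the share of called features that were higher from 52.5% to 35%. The same rescaling moved that share from 43.7% to 64.3% at 24 h against 6 h in WT cells, from 44.6% to 60.7% at 24 h against 6 h in ΔCRE cells and from 37.2% to 24.7% for ΔCRE against WT cells at 24 h. No called change of the 9 genes turned its direction under it.

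The largest falls at 24 h in WT cells were those of GADD45B, UHRF1 and TET2. For that reason, the 250 bases before their transcription starts are shown. Known mediators of the stimulus include NFAT, NF-κB and AP-1. By their calls the 3 genes differed in timing, and this difference was not tested. TET2 was called lower at 6 h and did not change further by a call between 6 and 24 h. UHRF1 was called lower between 6 and 24 h and not at 6 h, and GADD45B was called lower in both steps. With quantile normalization or TPM, UHRF1 was called lower at 6 h as well. RefSeq entries of the GRCh38.p14 table matched 9 of the 10 genes, and GADD45A had no entry and was not searched. Each window was placed on GRCh37, the build of hg19, by its only exact match, with positions counted back from the start. Both strands were searched for the E2F forms TTTCCCGC, TTTCGCGC, TTTGCCGC and TTTGGCGC, the CREB site TGACGTCA and the NF-κB consensus. For AP-1, a factor induced by phorbol esters, the letters were TGAGTCA. For NFAT, the calcium-responsive family, the core GGAAA was used. The Sp1 site was read as GGGCGG, and the CCAAT box by its own letters. Capitals mark the E2F, NFAT and NF-κB matches, and no AP-1 or CREB match was found in the 3 windows. All 3 lie on the plus strand.
UHRF1, chr19:4909263-4909512: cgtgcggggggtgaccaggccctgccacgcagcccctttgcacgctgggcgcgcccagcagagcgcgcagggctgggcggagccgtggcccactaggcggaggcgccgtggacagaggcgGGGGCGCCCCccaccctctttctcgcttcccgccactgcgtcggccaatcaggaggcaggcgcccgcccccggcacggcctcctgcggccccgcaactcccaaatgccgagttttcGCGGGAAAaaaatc
TET2, chr4:106066782-106067031: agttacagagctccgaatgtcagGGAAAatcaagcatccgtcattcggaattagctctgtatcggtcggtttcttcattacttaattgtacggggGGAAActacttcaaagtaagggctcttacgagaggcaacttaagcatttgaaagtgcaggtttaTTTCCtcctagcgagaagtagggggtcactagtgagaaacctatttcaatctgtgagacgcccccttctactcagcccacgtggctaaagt
GADD45B, chr19:2475875-2476124: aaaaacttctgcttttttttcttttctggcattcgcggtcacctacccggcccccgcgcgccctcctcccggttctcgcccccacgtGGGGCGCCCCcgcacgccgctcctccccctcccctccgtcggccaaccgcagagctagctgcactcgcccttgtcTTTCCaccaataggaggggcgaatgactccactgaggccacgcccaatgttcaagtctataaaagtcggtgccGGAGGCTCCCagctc
The UHRF1 window held an E2F match at −14 that shares bases with an NFAT match at −11, an NF-κB match at −130, a CCAAT box at −86 and Sp1 matches at −176 and −67. TET2 had NFAT matches alone, at −227, −155 and −91. In GADD45B there were NF-κB matches at −163 and −15, an NFAT match at −88 and CCAAT boxes at −82 and −45. Of all 35093 windows of this length in the table, 2.79% held an E2F match, 9.95% NF-κB, 55.7% NFAT, 4.20% AP-1, 1.65% CREB, 32.0% CCAAT and 42.6% Sp1. UHRF1 had 28 CpG sites in its window, GADD45B 21 and TET2 10, and the median over all windows was 11. Such matches were not limited to the 3 genes. DNMT3B held NF-κB matches at −241, −240 and −239, which share bases in a single stretch, and TET3 held a match at −191. These windows lay 17468 and 43630 bases from the edge of their features. NFAT matches lay at −7 in DNMT1 and at −205 in TET1, and DNMT3A and TDG had neither. UHRF1 had 3 starts and TET2 2, and the start nearest the feature edge was used. These matches describe letters in a window, and binding was not measured here.

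DNMT1 (chr19:10244021-10305755 on hg19), the maintenance methyltransferase, was at 89.4 and 86.3 FPKM at 0 h in the 2 WT libraries, 100.3 and 94.5 FPKM at 6 h and 70.8 and 70.9 FPKM at 24 h. Both libraries at 24 h lay below all 4 earlier ones. Its log2 fold change at 6 h was 0.15 (95% confidence interval 0.01 to 0.28, adjusted p = 0.0792). At 24 h it fell by 0.31 against 0 h (SE 0.060, adjusted p = 0.00283) and by 0.45 against 6 h (adjusted p = 0.000499). In these bulk libraries a lower level in every cell and a lower share of expressing cells cannot be told apart.

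UHRF1 (chr19:4909509-4962165), the partner that brings DNMT1 to hemimethylated DNA, fell further than DNMT1. Its WT libraries were at 77.1 and 75.7 FPKM at 0 h, 73.7 and 67.4 FPKM at 6 h and 45.6 and 45.9 FPKM at 24 h. The 24 h libraries lay far below the others, at 59.9% of the 0 h mean. The log2 fold change was −0.11 at 6 h (adjusted p = 0.144) and −0.73 at 24 h (SE 0.058, adjusted p = 2.2e-05). At 6 h the change passed the threshold with quantile normalization (−0.21, adjusted p = 0.0101) and with TPM (−0.24, adjusted p = 0.00889). The FPKM ratio of DNMT1 to UHRF1 was 1.16 and 1.14 at 0 h, 1.36 and 1.40 at 6 h and 1.55 and 1.55 at 24 h, higher in both libraries of each later time point.

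DNMT1 and UHRF1 are known as genes of proliferating cells, and genes of the S phase also fell at 24 h. The S phase list was chosen with earlier results of these data known. All 20 S phase genes of the list (MCM helicase subunits, GINS subunits, E2F1 and others) were called lower at 24 h in WT cells, where 28.2% of all features were. Their median log2 fold change was −0.52 against −0.020 over all features. At 6 h, 7 were called lower and 2 higher, with a median of −0.13, where 21.1% of all features were called lower and 23.3% higher. CCNE2, the cyclin of S phase entry, went from 15.4 to 9.42 and 4.98 FPKM at 0, 6 and 24 h, RRM2, a ribonucleotide reductase subunit, from 111.4 to 119.5 and 53.0 FPKM, and TYMS, thymidylate synthase, from 76.7 to 74.5 and 42.4 FPKM. MCM6 and GINS3 fell by 0.40 and 0.37 on the log2 scale at 6 h. The part of proliferation in the falls of DNMT1 and UHRF1 was not tested.

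DNMT3A (chr2:25455829-25565459) and DNMT3B (chr20:31350190-31397162), the enzymes of new methylation, did not share the fall at 24 h. DNMT3A was at 7.58 and 7.94 FPKM at 0 h, 10.9 and 8.64 FPKM at 6 h and 8.59 and 8.83 FPKM at 24 h in WT cells. The first 6 h library was high and the other lay among the 24 h libraries. DNMT3A rose at 6 h by 0.29 (SE 0.094, adjusted p = 0.0332), a call that was lost on leaving out WT 0 h replicate 1 (adjusted p = 0.121), WT 0 h replicate 2 (0.0787), WT 6 h replicate 1 (0.198, log2 fold change 0.14), WT 24 h replicate 1 (0.0509) or WT 24 h replicate 2 (0.0502), with TPM (0.182), without the filter (0.0621) and with the WT libraries alone (0.0614). At 24 h the difference was 0.15 (95% confidence interval −0.07 to 0.36, adjusted p = 0.207). Without WT 6 h replicate 2, DNMT3A was called lower at 24 h than at 6 h (−0.30, adjusted p = 0.0209). DNMT3B ranged from 2.76 to 3.62 FPKM over the 6 WT libraries, and its log2 fold changes of 0.19 at 6 h and 0.13 at 24 h did not pass the test (adjusted p = 0.179 and 0.322). The interval at 24 h against 0 h was −0.11 to 0.37 for DNMT3B.

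The TET dioxygenases moved in different directions at 6 h. TET2 (chr4:106067031-106200960) was at 2.93 and 3.20 FPKM at 0 h, 1.33 and 1.53 FPKM at 6 h and 1.61 and 1.61 FPKM at 24 h in WT cells, so all 4 stimulated libraries lay below both unstimulated ones. It fell by 0.74 at 6 h (SE 0.088, adjusted p = 0.000258) and by 0.64 at 24 h (adjusted p = 0.000427), and its levels at 6 and 24 h were not called different (adjusted p = 0.363). TET2-AS1, a long noncoding RNA gene, lies on the opposite strand within the TET2 locus. Whether the counting used strand is not given in the sources used here. Genes on the same strand overlapped TET1 (2 pseudogenes), TDG (a long noncoding RNA and a microRNA), UHRF1 and DNMT3A (a microRNA each). Their part in the levels was not tested.

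TET3 (chr2:74273449-74335302) rose and then fell below its starting level. It was at 3.38 and 3.26 FPKM at 0 h, 5.17 and 4.69 FPKM at 6 h and 2.39 and 2.54 FPKM at 24 h, and no libraries of different time points overlapped. The log2 fold change was 0.45 at 6 h (SE 0.074, adjusted p = 0.00141) and −0.32 at 24 h (adjusted p = 0.00641), with a fall of 0.77 between 6 and 24 h. The FPKM ratio of TET3 to TET2 was 1.15 and 1.02 at 0 h, 3.87 and 3.07 at 6 h and 1.48 and 1.58 at 24 h. Their sum with TET1 overlapped between 0 h (6.53 and 6.77 FPKM) and 6 h (6.58 and 6.28 FPKM) and was lower at 24 h (4.16 and 4.35 FPKM).

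TET1 (chr10:70320116-70454239) stayed under 0.4 FPKM in all 12 libraries. In WT cells it was at 0.224 and 0.298 FPKM at 0 h, 0.0760 and 0.0688 FPKM at 6 h and 0.155 and 0.197 FPKM at 24 h, lowest in both 6 h libraries. The filter kept it out of the test. In a fit of 17700 features without that filter, its log2 fold change was −0.23 at 6 h (adjusted p = 0.00874) and −0.10 at 24 h (adjusted p = 0.131), on a scale that understates changes of genes this low.

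**Figure D3:**
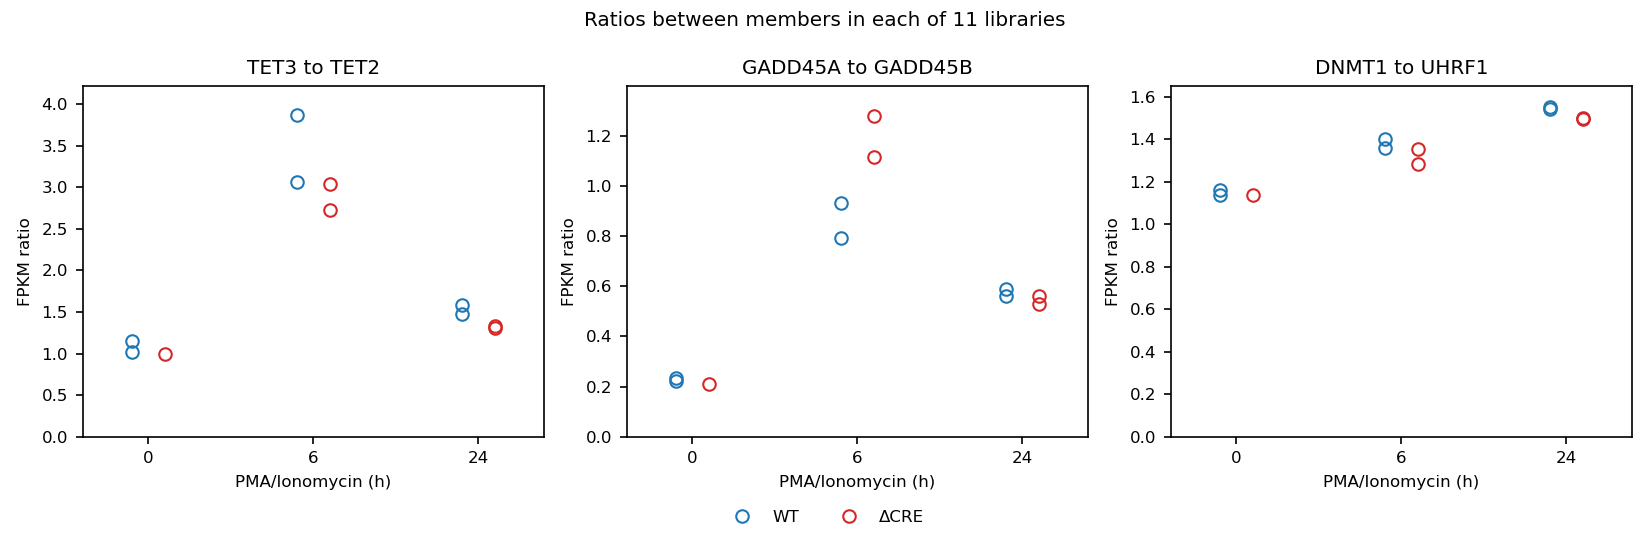
FPKM ratios within each of the 11 libraries (vertical axes, from 0) by time of PMA/Ionomycin (horizontal axes), WT in blue and ΔCRE in red. The ratio of TET3 to TET2 lies between 2.73 and 3.87 in the 4 libraries at 6 h and at most at 1.58 in the others, the ratio of GADD45A to GADD45B is highest in ΔCRE cells at 6 h, and that of DNMT1 to UHRF1 is higher at each later time point.

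TDG (chr12:104359592-104382656), the glycosylase that acts after the TET enzymes, fell late. It was at 20.1 and 23.9 FPKM at 0 h, 21.8 and 21.4 FPKM at 6 h and 13.5 and 14.4 FPKM at 24 h in WT cells. Levels at 0 and 6 h overlapped, and both 24 h libraries lay below them. The log2 fold change was −0.02 at 6 h (95% confidence interval −0.24 to 0.20) and −0.62 at 24 h (SE 0.096, adjusted p = 0.000826).

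GADD45A and GADD45B, proteins that bind stress kinases and PCNA, went opposite ways at 6 h. GADD45A (chr1:68150859-68154021) was at 8.57 and 6.87 FPKM at 0 h, 18.6 and 20.5 FPKM at 6 h and 8.44 and 8.36 FPKM at 24 h in WT cells. The 24 h libraries lay between the 0 h libraries. It rose by 1.24 at 6 h (SE 0.10, adjusted p = 3.1e-05), the largest change of the 9 genes at that time, and its level at 24 h differed from that at 0 h by 0.12 (95% confidence interval −0.12 to 0.35, adjusted p = 0.363).

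GADD45B (chr19:2476122-2478257) fell at both time points. Its WT libraries were at 36.6 and 30.9 FPKM at 0 h, 23.5 and 22.0 FPKM at 6 h and 15.1 and 14.2 FPKM at 24 h, with no overlap between time points. The fall was 0.55 on the log2 scale at 6 h (SE 0.098, adjusted p = 0.00236) and 1.15 at 24 h (adjusted p = 3.2e-05). From these levels, the FPKM ratio of GADD45A to GADD45B was 0.234 and 0.222 at 0 h, 0.792 and 0.934 at 6 h and 0.561 and 0.589 at 24 h.

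Over the 11 libraries, log2 levels of UHRF1 correlated with those of DNMT1 and of GADD45B at an r of 0.94 each, TET3 with DNMT1 at 0.90 and TDG with UHRF1 at 0.89. GADD45A and GADD45B correlated at 0.19, TET3 and TET2 at −0.22 and TET2 and DNMT3A at −0.65. These values are a description, since the libraries share 3 time points and 2 genotypes, and libraries of a condition are not independent of it.

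ΔCRE cells were compared with WT cells at 6 h and at 24 h. At 6 h, 1 of the 9 genes was called, where 9.83% of all features were (3.62% higher and 6.22% lower). GADD45A was at 32.8 and 33.3 FPKM in ΔCRE cells and at 18.6 and 20.5 FPKM in WT cells, higher in both libraries, with a log2 fold change of 0.73 (SE 0.10, 95% confidence interval 0.50 to 0.96, adjusted p = 0.00385). GADD45B was at 25.7 and 29.9 FPKM in ΔCRE against 23.5 and 22.0 FPKM in WT cells, without overlap, and its difference of 0.27 did not pass the adjusted threshold (adjusted p = 0.129). The other 7 genes differed by −0.20 to 0.16. At 24 h, limma called none of the 9 genes, none had an unadjusted p under 0.05, and 6.33% of all features were called (2.35% higher and 3.97% lower). Differences ran from −0.11 to 0.17, with 95% confidence intervals that reached at most 0.39 from 0. GADD45A differed by 0.02 at 24 h (95% confidence interval −0.22 to 0.25).

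**Figure D4:**
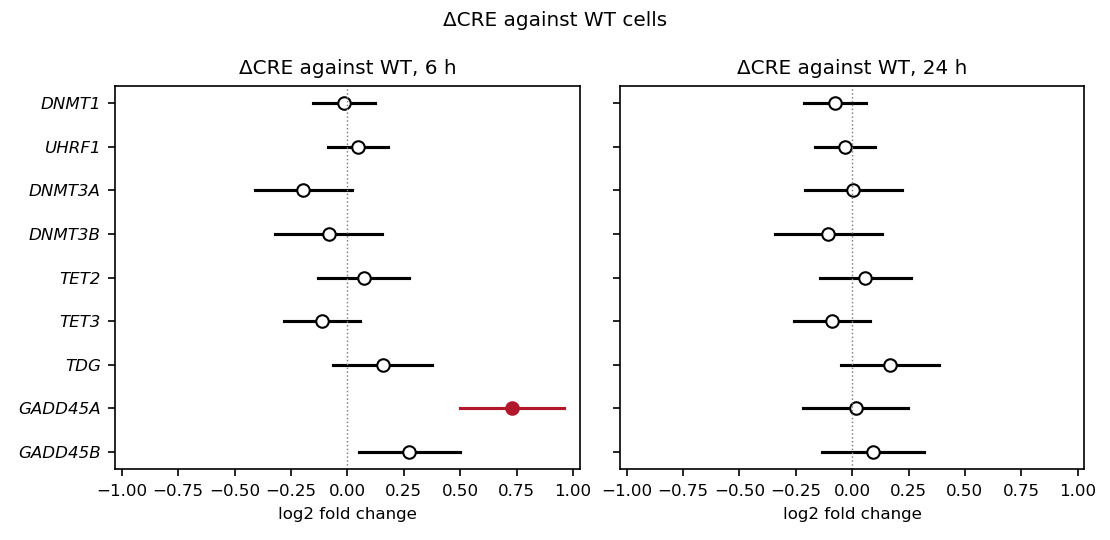
Log2 fold change of FPKM + 1 (horizontal axes) of ΔCRE against WT cells at 6 h and 24 h for 9 genes. Points are limma estimates, bars 95% confidence intervals, and the filled red point has an adjusted p under 0.05. At 6 h GADD45A lies at 0.73, and at 24 h all intervals include 0.

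Within ΔCRE cells, 6 genes were called between 6 and 24 h, all lower, where 49.6% of all features were called (22.1% higher and 27.5% lower). They were DNMT1 (−0.51), UHRF1 (−0.69), TET3 (−0.75), TDG (−0.58), GADD45A (−1.84, adjusted p = 5e-06) and GADD45B (−0.79). The difference between genotypes in this change was called for none of the 9 genes by limma, and 0.16% of all features were called (0.142% higher and 0.0178% lower). For GADD45A it was −0.71 (SE 0.14, 95% confidence interval −1.04 to −0.39) with an adjusted p of 0.179, and this was the 1 gene with an unadjusted p under 0.05.

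Unstimulated ΔCRE cells are described by replicate 2 alone, with no test. Its levels of the 9 genes lay between −0.09 and 0.25 of the WT mean on the log2 scale. From that library GADD45A went from 8.23 to 32.8 and 33.3 FPKM at 6 h and to 9.12 and 7.92 FPKM at 24 h. TET2 went from 3.07 to 1.68 and 1.43 FPKM and to 1.70 and 1.74 FPKM, TET3 from 3.05 to 4.58 and 4.36 FPKM and to 2.25 and 2.27 FPKM. UHRF1 went from 84.4 FPKM to 74.0 and 71.9 FPKM and to 46.1 and 43.4 FPKM, and DNMT1 from 96.0 FPKM to 100.2 and 92.3 FPKM and to 69.1 and 65.1 FPKM. For DNMT1 the 6 h libraries lay on both sides of the 0 h library. DNMT3B was at 3.70 FPKM in that library and at means of 3.25 and 3.02 FPKM at 6 and 24 h, where WT cells had 2.95, 3.49 and 3.32 FPKM, so the order of time points was not the one of WT cells.

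With ΔCRE 0 h replicate 1 included, the spread estimated for the 9 genes grew to an SE of 0.12 to 0.67. In that fit the members called were 0 at 6 h, 1 at 24 h and 0 between 6 and 24 h in WT cells, 0 for ΔCRE against WT cells at 6 h and 2 between 6 and 24 h in ΔCRE cells. Of the 11676 features tested in it, 857, 1221, 582, 20 and 845 were called in the same comparisons, in that order. GADD45B at 24 h against 0 h in WT cells (adjusted p = 0.0030) and GADD45A and GADD45B at 24 h against 6 h in ΔCRE cells (adjusted p = 0.0177 and 0.0214) were kept, and the other 21 of 24 calls were lost, with adjusted p-values from 0.0612 to 1.0. GADD45A in ΔCRE against WT cells at 6 h was among those lost (adjusted p = 1.0), and 7 of the 20 S phase genes were called lower at 24 h in WT cells. Of the 1221 features called at 24 h against 0 h in WT cells, 60.4% were higher. The fold changes themselves do not use the library left out, apart from those of ΔCRE cells at 0 h.

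The other genes of the pathway were read from 8 lists, and each list's calls are set beside the shares of all features called higher and lower in WT cells (23.3% and 21.1% at 6 h, 26.5% and 28.2% at 24 h). Among 11 tested cofactors of DNA methylation, 3 rose and 5 fell at 6 h and 2 rose and 6 fell at 24 h, with medians of −0.16 and −0.25. NSD1, a histone methyltransferase, fell by 0.74 at 6 h (adjusted p = 8.01e-05), and TRDMT1, a relative of the DNA methyltransferases that methylates transfer RNA, by 0.59. CDCA7 and CDCA7L, of which CDCA7 activates the remodeller HELLS, were lower at 24 h by 0.80 and 0.58, CDCA7 at 28.4, 25.0 and 15.9 FPKM at 0, 6 and 24 h. UHRF2, the paralogue of UHRF1, was at 6.82, 10.3 and 10.9 FPKM and rose by 0.61 at 24 h, opposite to UHRF1. Of 7 readers of methylated CpG sites, 2 rose and 0 fell at 6 h and 2 rose and 2 fell at 24 h (medians 0.10 and −0.19). ZBTB38 rose by 0.26 at 6 h, MBD1 by 0.22 at 6 h and 0.32 at 24 h, ZBTB4 by 0.58 at 24 h, and MBD3 fell by 0.34 at 24 h.

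**Figure D5:**
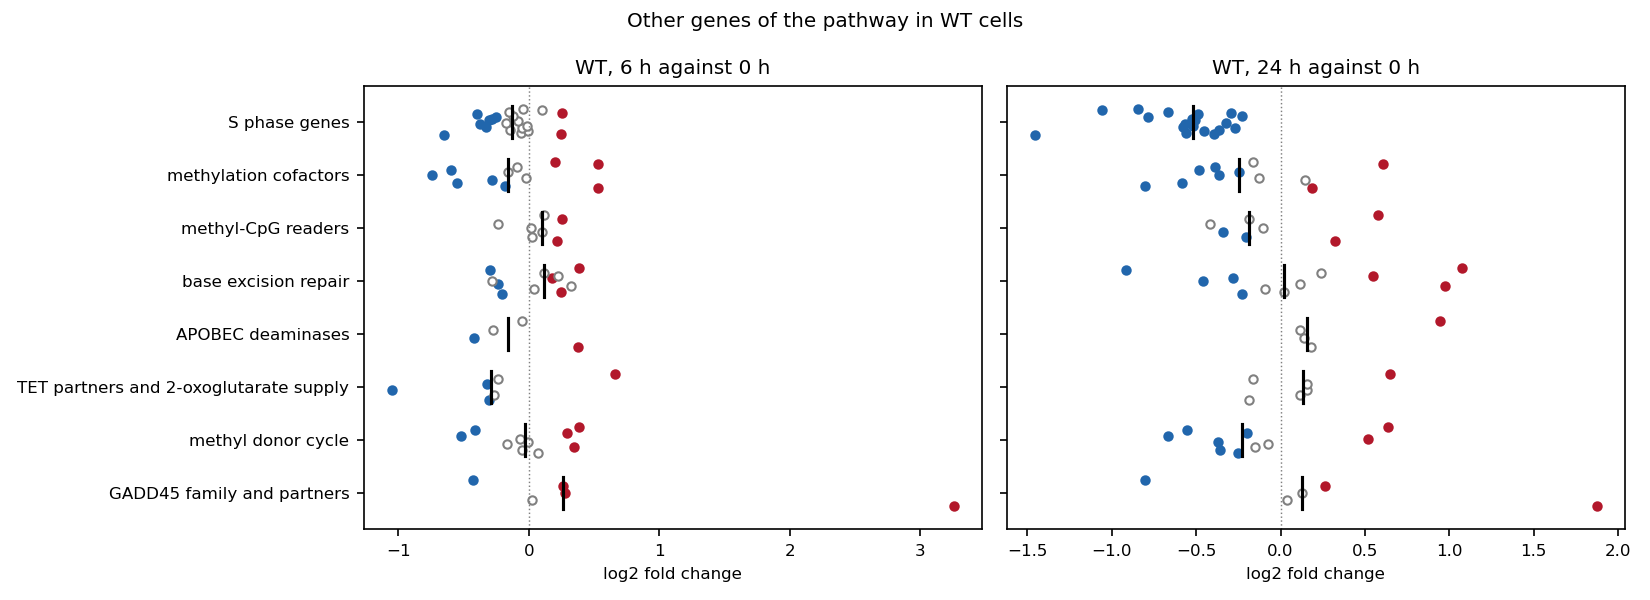
Log2 fold change of FPKM + 1 (horizontal axes, with different ranges) at 6 h and 24 h against 0 h in WT cells for the tested genes of 8 lists. Filled points have an adjusted p under 0.05 (red higher, blue lower), open points do not, black bars are list medians, and the shared feature of APOBEC3A and APOBEC3B is 1 point. All 20 S phase genes lie below 0 at 24 h, and CDKN1A is the point at 3.26 at 6 h.

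In base excision repair, which finishes what TDG starts, 11 genes were tested, and 3 rose and 3 fell at 6 h and 3 rose and 4 fell at 24 h (medians 0.11 and 0.02). XRCC1, the scaffold of the repair complex, rose from 9.17 to 12.3 and 20.4 FPKM, by 0.39 at 6 h and 1.07 at 24 h (adjusted p = 4.12e-06). UNG, the uracil glycosylase, fell from 78.7 to 64.0 and 41.4 FPKM, by 0.29 and 0.91. LIG3, a ligase, rose by 0.25 at 6 h and NEIL1, a glycosylase, by 0.98 at 24 h. Of the APOBEC deaminases, 5 were tested, of which APOBEC3A and APOBEC3B share 1 feature. That feature rose at 6 h (37.9 to 49.2 FPKM, log2 fold change 0.38), APOBEC3C fell (24.1 to 17.7 FPKM, by 0.42), and APOBEC3F rose at 24 h (1.22 to 3.25 FPKM, by 0.95). Over these 4 features, 1 rose and 1 fell at 6 h and 1 rose and 0 fell at 24 h, with medians of −0.16 and 0.16.

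Genes that supply or modify TET enzymes gave 6 tested genes, of which 1 rose and 3 fell at 6 h and 1 rose and 0 fell at 24 h (medians −0.29 and 0.14). IDH1, which makes the TET cosubstrate oxoglutarate, fell from 49.8 to 23.5 FPKM at 6 h, by 1.05 (SE 0.085, adjusted p = 3.05e-05), and was at 55.4 FPKM at 24 h. IDH2, the mitochondrial form, fell by 0.32 at 6 h. OGT, a sugar transferase that binds TET proteins, rose from 22.8 to 36.6 and 36.3 FPKM, by 0.66 and 0.65. In the cycle that provides the methyl donor, 10 genes were tested. Of these, 3 rose and 2 fell at 6 h, and 2 rose and 6 fell at 24 h (medians −0.03 and −0.23). SHMT2, the mitochondrial serine hydroxymethyltransferase, rose by 0.38 and 0.64, while SHMT1, the cytosolic form, fell by 0.41 and 0.55 and MTR, methionine synthase, by 0.52 and 0.67.

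Of the 5 tested genes around GADD45, 3 rose and 1 fell at 6 h and 2 rose and 1 fell at 24 h (medians 0.26 and 0.12). CDKN1A, the p21 inhibitor of cyclin-dependent kinases and a partner of GADD45A, was at 12.4, 126.7 and 48.0 FPKM at 0, 6 and 24 h and rose by 3.26 at 6 h (SE 0.058, adjusted p = 2.6e-09) and 1.87 at 24 h. PCNA, the replication clamp that GADD45 proteins and p21 bind, fell from 169.8 to 126.5 and 97.0 FPKM, by 0.43 and 0.80. MAP2K7 rose by 0.28 at 6 h and MAP3K4, a kinase activated by GADD45 proteins, by 0.26 at 24 h. GADD45G, the third member of the family, had a mean of 0.511 FPKM and was not tested. Over the 8 lists, 40 of 74 tested features (54.1%) were called at 6 h in WT cells, where 44.4% of all features were. At 24 h, 52 were called (70.3%, against 54.6% of all features), 20 of them S phase genes. With ΔCRE 0 h replicate 1 included, 4 features of the lists were called at 6 h (5.41%, 2 higher and 2 lower). At 24 h, 17 were called (23.0%, 7 higher and 10 lower). Of all 11676 features tested, 857 and 1221 were called at these times with that library included. In that fit each list had 0 to 2 calls at either time, apart from the S phase genes at 24 h.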

How the data were processed

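The authors aligned stranded mRNA sequences to hg19 using TopHat 2.0.12, ran Cufflinks 2.2.1 on the alignments, and deposited FPKM values of 24331 features in 12 libraries. The gene annotation and any scaling between libraries are not given in the sources used here. Groups follow the genotype, time and replicate number in the labels. The column names of ΔCRE 6 h replicate 2 and ΔCRE 0 h replicate 2 have a digit where the others have a letter, and were matched to the only label left. FPKM values do not keep fragment numbers, so depth is unknown and no counting interval was computed.

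The deposited FPKM values were taken as log2(FPKM + 1). The test was limma 3.58.1 in R 4.3.3 (lmFit, eBayes with a trend, 1 model of 6 groups) on 11 libraries, ΔCRE 0 h replicate 1 being left out, over the 11256 features that averaged 1 FPKM or more, with Benjamini-Hochberg adjustment and a threshold of 0.05. A fold change on this scale understates that of low genes. The script was tested on simulated data. P-values measure the spread between libraries described as biological replicates. Cuffdiff, used in the study, needs reads and was not run.

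All 10 members were named throughout. From each of 8 further lists (methylation cofactors, methyl-CpG readers, base excision repair, APOBEC deaminases, TET partners and oxoglutarate supply, methyl donor cycle, GADD45 family and partners, S phase genes), the rule named the up to 3 called genes with the highest absolute fold change in WT cells, separately for 6 h and 24 h. Likeness used the 5 features with the highest r over 11 libraries. Members and lists were chosen with earlier results of these data known. Where a symbol had more than 1 feature, the one of highest mean was taken. The settings varied were the pseudocount (0.1), the filter (none, or a mean of 5 FPKM), the scaling (quantile normalization, TPM), the libraries (all 12, WT alone, each left out in turn), a block for the replicate number, and the trend in eBayes. Promoter windows came from RefSeq (GRCh38.p14) and were placed on GRCh37 by exact match. Overlapping genes were read from GENCODE for that build. Other calculations used Python 3.11.15.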

Additional observations from a re-analysis of the deposited data

Results flagged for a closer look

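The library labelled ΔCRE 0 h replicate 1 was left out of the fit of 11 libraries. In it, 3 of the 10 genes were higher than in both unstimulated WT libraries. DNMT3A was at 9.645 FPKM against at most 7.94 FPKM, GADD45A at 20.605 FPKM against at most 8.57 FPKM, and GADD45B at 50.648 FPKM against at most 36.6 FPKM. The FPKM of that library sum to 1423335, against 600054 and 566255 in the unstimulated WT libraries. Rescaled to a common sum (TPM), DNMT3A was at 6.78 against 12.6 and 14.0 and GADD45B at 35.6 against 60.97 and 54.7, below both WT libraries, while GADD45A was at 14.5 against 14.3 and 12.1. The other 7 genes were lower in it on the FPKM scale, from 14.2% (TET1) to 56.1% (TDG) of their level in ΔCRE 0 h replicate 2. The same library had the sum of intestinal epithelium markers at 4294 FPKM, and its part in these values was not tested.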

How the results depend on the processing

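No called change of the 9 genes reversed under any alternative, and the counts of genes called stayed within 1.5 times their value under a pseudocount of 0.1, no filter, quantile normalization, TPM, WT libraries alone, the replicate block and eBayes without trend. With all 12 libraries, in which 1 library widened the spread, the counts were 0 of 9 genes at 6 h against 0 h, 1 at 24 h against 0 h and 0 at 24 h against 6 h in WT cells, 0 for ΔCRE against WT cells at 6 h and 2 at 24 h against 6 h in ΔCRE cells. Over all 11676 features tested, that fit called 857, 1221, 582, 20 and 845 in these comparisons. Without the library, 4993, 6151, 5267, 1107 and 5586 of 11256 features were called. A mean FPKM of at least 5 left 3 genes called at 6 h in WT cells, since it drops DNMT3B, TET2 and TET3 from the test.

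Leaving out each library in turn gave 4 to 5 genes at 6 h and 6 at 24 h against 0 h, 6 to 7 between 6 and 24 h in WT cells, 1 for ΔCRE against WT cells at 6 h, 0 at 24 h, 6 between 6 and 24 h in ΔCRE cells and 0 for the difference between genotypes. What replicates of the same number share is not given in the labels. The correlation of replicate differences between 10 pairs of groups was −0.0676 to 0.202. With the replicate block, 6 genes were called at 6 h in WT cells, DNMT1 being added (0.15, SE 0.0396, limma adjusted p = 0.0173). Without the block its SE was 0.0602, so the DNMT1 call at 6 h depends on this setting. For ΔCRE against WT cells, 1805 and 1407 features were called at 6 and 24 h with the block, against 1107 and 712 without it. A part shared by replicates of the same number was therefore not excluded. Uncalled values changed sign with TPM or quantile normalization, among them DNMT3A and GADD45A for ΔCRE against WT cells at 24 h. Depth is unknown, so the precision of TET1 and other low genes rests on at most 2 libraries per condition.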

Other observations

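Genes whose profile over the 11 libraries was most like that of GADD45A were TXNRD1 (r = 0.982), KCTD5 (0.981), ORAOV1 (0.979), ALG2 (0.974) and FLNC (0.973). TXNRD1, thioredoxin reductase, was at 88.5, 162.8 and 96.1 FPKM at 0, 6 and 24 h in WT cells and at 210.4 FPKM in ΔCRE cells at 6 h. FLNC, a filamin, was at 11.3, 41.2 and 11.1 FPKM in WT cells and at 54.2 FPKM in ΔCRE cells at 6 h. The profile most like that of DNMT1 was shared by GUCD1 and NCS1 (r = 0.995 each), KIF18B (0.991), COL4A2 (0.990) and MAZ (0.989). KIF18B, a mitotic kinesin, was at 24.4, 27.1 and 18.0 FPKM in WT cells. These correlations are a description over libraries that share conditions.

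Among the 74 tested features of the further pathway lists, 7 were called between ΔCRE and WT cells at 6 h (9.46%, against 9.83% of all features) and 4 at 24 h (5.41% against 6.33%). All 7 are named here, chosen after their values were seen. Both S phase genes called at 6 h and at 24 h were higher in ΔCRE cells, RRM2 (log2 fold change 0.35 and 0.29) and CCNE2 (0.45 and 0.42). CDCA7L was lower at both times (−0.20 and −0.25), as was the methyl-CpG reader ZBTB4 (−0.36 and −0.41). At 6 h alone, POLB was called lower (−0.45), CDKN1A lower (−0.27) and IDH2 higher (0.51), and whether these differences changed between 6 and 24 h was not called by limma for any of them. With all 12 libraries, limma called 0 genes of these lists between genotypes at either time, with an unadjusted p under 0.05 for 1 at 6 h and 2 at 24 h.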
